A study of Rattus norvegicus with 21 samples.

Results

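The genes described here move calcium across neuronal membranes or pass its signal on: voltage-gated calcium channel subunits, the channels that release calcium from internal stores, the pumps and exchangers that clear it, calmodulin, the calmodulin-dependent kinases and the phosphatase calcineurin. Members were all probes whose annotated symbol began with Cacn (except Cacng2), Atp2a, Atp2b, Slc8a, Camk or Ppp3, or with Ryr, Itpr or Calm followed by a digit. They numbered 55 of the 13337 genes named in the array's annotation, measured by 58 of 22523 probes. The RNA came from areas of the dentate gyrus in hippocampal slices of 6 Wistar rats in which pilocarpine, an agonist of muscarinic receptors, had induced epilepsy. Recording in the slice had sorted each area as one that generated fast ripples, very fast field oscillations of epileptic tissue (FR, 10 areas), or one that did not (nonFR, 11 areas). The rats were labelled P91, B9, B1, B3, B13 and B10. Both kinds of area were taken from 10 slices, and slice S2 of B9 gave a nonFR area only. All groups carried the pilocarpine treatment, and no untreated rat was analysed here. The comparison is therefore between areas of epileptic tissue.

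In a granule cell, depolarisation opens voltage-gated calcium channels, whose pore (alpha-1) subunit is trafficked and tuned by alpha-2-delta and beta subunits. Receptors for inositol trisphosphate and ryanodine add calcium from the endoplasmic reticulum, SERCA pumps return it there, and plasma-membrane pumps and sodium-calcium exchangers extrude it. Calcium bound to calmodulin activates both the kinases, which strengthen synapses and drive activity-dependent transcription, and calcineurin, which opposes them.

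Of the 58 member probes, 34 (one for each of 34 genes) were detected on at least 10 of the 21 arrays, at a detection p below 0.01 against negative controls, and entered the test. Another 21 were measured but did not pass, and 3 of the 4 Ryr2 probes held 0 in every column. FR arrays detected 25 to 36 members and nonFR arrays 22 to 37. Levels are log2 normalized signals, whose background floor was 5.77. Mean raw signal ran from 101.3 to 369.8 on FR arrays and from 84.2 to 310.9 on nonFR arrays. The areas held RNA of neurons and glia: 9 of 9 neuron markers passed the filter, as did 7 of 8 listed astrocyte, 7 of 10 oligodendrocyte and 6 of 9 microglia markers, and 0 of 5 choroid plexus markers. Summed astrocyte signal (8056 to 35019 in FR areas, 14409 to 26858 in nonFR areas) spanned a range like that of the neuron list (9415 to 32111 in FR areas, 18313 to 30257 in nonFR areas). Prox1, the granule cell transcription factor, was detected on 15 arrays and Calb1, calbindin, on 21.

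Several calcium genes did not pass the detection filter. The pore genes of the P/Q, N and R-type channels (Cacna1a, Cacna1b and Cacna1e) were detected on 0 arrays, as were Cacna2d2, Cacng1, Cacng4, Cacng5, Cacng6 and Cacng7, the receptor genes Itpr2 and Itpr3, the plasma-membrane pump gene Atp2b4 and the calcineurin regulatory gene Ppp3r2. Cacna2d4 and Cacng8 were detected on 1 array each, Cacnb4 and the kinase inhibitor gene Camk2n2 on 2, Camk2a on 3, the SERCA gene Atp2a3 on 5, Camkk2 on 7 and Atp2b2 on 8. Camk2a encodes a major kinase of forebrain excitatory neurons. Its probe was at 5.85 to 5.97 in FR areas and 5.84 to 5.92 in nonFR areas. All of these probes lay near the floor of the scale, those detected on some arrays included, and no difference is given for them. Each of these genes had only 1 probe, so a probe without detection does not show that the transcript was absent.

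No tested member differed between FR and nonFR areas beyond the spread within rats. In the limma fit with rat as a block, 0 of 34 members had an adjusted p below 0.05, beside 0% of all 8211 features tested. At an unadjusted p below 0.05 there were 0 members, against 29 features (0.353%). The adjusted p was 0.9999 for each of the 34 members. Of the members, 23 were lower and 11 higher in FR areas (67.6% lower, against 47.7% of all features), with a median difference of -0.040 log2 for members and 0.0037 for all features. For 29 members the 95% interval of the difference lay within 1 log2 unit either way. The 5 with wider intervals were Cacna2d1, Camk2b, Atp2b1, Atp2b3 and Camk1g. Missing the threshold is no evidence that levels were alike, and areas of one rat are not independent animals. In such bulk areas, fewer cells of a type and less RNA per cell cannot be told apart.

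**Figure D1:**
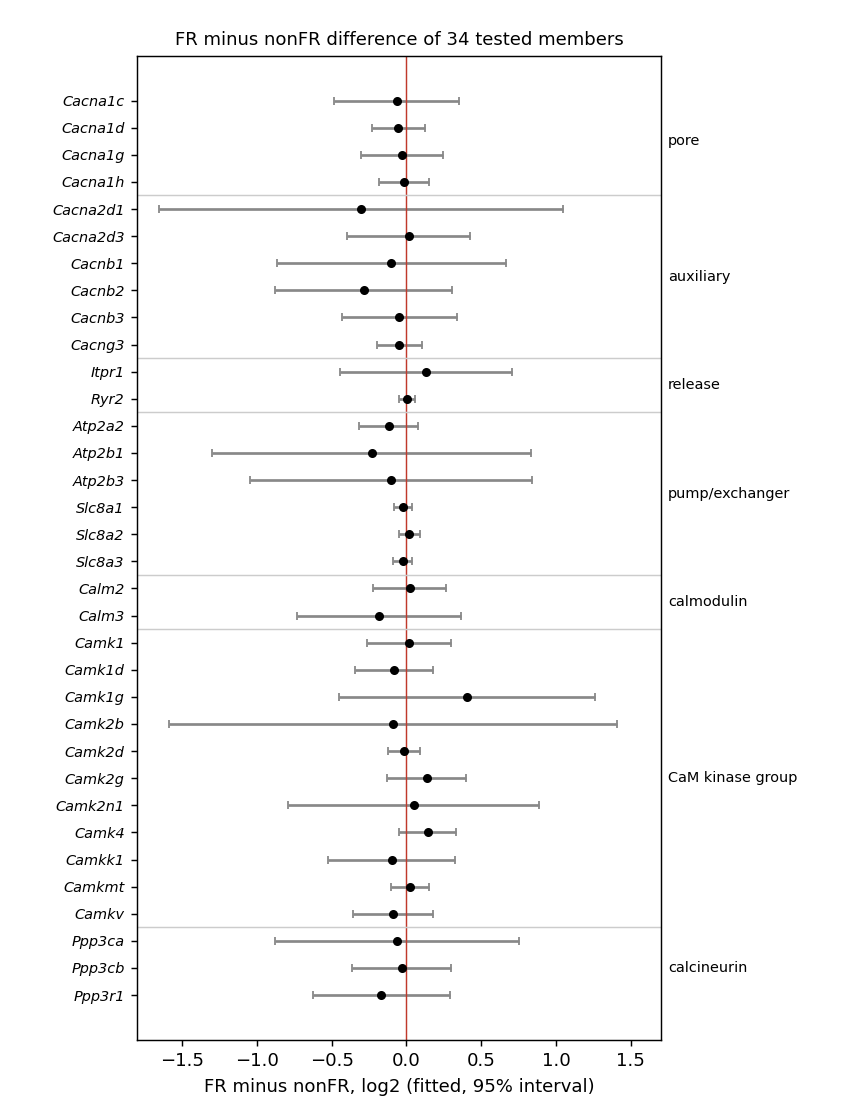
Fitted FR minus nonFR difference (log2, horizontal axis) of the 34 tested members, grouped by role, with 95% intervals from the limma fit over 10 FR and 11 nonFR areas. Every interval includes 0, and those of Cacna2d1, Camk2b and Atp2b1 are the widest.

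The pore subunits gave 0 of 4 tested genes higher in FR areas, with differences from -0.065 to -0.015. Cacna1d, an L-type pore, ranged from 5.89 to 6.33 in FR areas (median 6.01) and from 5.88 to 6.53 in nonFR areas (median 6.06). Its groups overlapped over nearly their whole range, and the difference was -0.054 (SE 0.084, p = 0.528, limma). Cacna1g, a T-type pore that opens at low voltage, ranged from 5.87 to 6.66 in FR areas (median 6.14) and from 5.86 to 6.93 in nonFR areas (median 6.15). The highest of these areas was a nonFR area of B10, and the difference was -0.029 (SE 0.129). The other L-type pore, Cacna1c, had -0.065 (SE 0.196) and the other T-type pore, Cacna1h, -0.015 (SE 0.079).

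Among auxiliary subunits, 1 of 6 tested genes was higher in FR areas. Cacnb2, a beta subunit that brings the pore to the membrane, ranged from 5.93 to 7.51 in FR areas (median 6.46) and from 5.95 to 8.87 in nonFR areas (median 6.24). The highest nonFR level came from B13, where the FR area was 2.17 log2 below it. The fitted difference was -0.28 (SE 0.278, p = 0.322, limma). Cacnb3, another beta subunit, ranged from 8.86 to 11.50 in FR areas (median 10.21) and from 9.47 to 11.27 in nonFR areas (median 10.28), a difference of -0.049 (SE 0.181). Cacnb1 had -0.10 (SE 0.360) and Cacng3, which encodes an auxiliary subunit of AMPA receptors, -0.048 (SE 0.071). The alpha-2-delta gene Cacna2d3 had 0.015 (SE 0.194), with 8.64 in the FR area of B13 against 7.63 in the highest nonFR area.

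Both tested store channels were nominally higher in FR areas, Ryr2 by only 0.0034 (SE 0.024). Itpr1, the main neuronal receptor for inositol trisphosphate, ranged from 8.05 to 10.98 in FR areas (median 9.56) and from 7.84 to 10.73 in nonFR areas (median 9.72). The groups overlapped, and the difference was 0.13 (SE 0.271, p = 0.639, limma). In slice S1 of P91 the FR area was 2.23 higher, and in slice S2 of B10 it stood at -1.53. The Ryr2 probe lay at 5.88 to 5.93 in both groups, at the bottom of the scale, and was detected on 7 FR and 4 nonFR arrays.

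Of the pumps and exchangers, 1 of 6 was higher in FR areas. Atp2a2, the SERCA pump of the endoplasmic reticulum, ranged from 11.44 to 13.25 in FR areas (median 12.51) and from 11.60 to 13.25 in nonFR areas (median 12.67). It was higher in FR areas in 3 of 10 slices, and the difference was -0.12 (95% interval -0.32 to 0.079, SE 0.093, p = 0.220, limma). The SD within rats was 0.215, less than the median member's 0.337. The plasma-membrane pumps Atp2b1 and Atp2b3 had -0.23 (SE 0.50) and -0.10 (SE 0.444). The exchangers Slc8a1, Slc8a2 and Slc8a3 had -0.020, 0.018 and -0.026, all at levels within 5.87 to 6.10, near the floor, where differences are compressed.

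Calm2 and Calm3, separate genes for the same calmodulin protein, had differences of 0.022 (SE 0.116) and -0.18 (SE 0.258, p = 0.484, limma). After normalization Calm2 was steady, with 12.72 to 13.65 in FR areas (median 13.21) and 12.35 to 13.48 in nonFR areas (median 13.30). The raw signal of Calm2 ran from 4159 to 16296, and 2 of 10 slices were higher in FR areas. Calm3 ranged from 7.88 to 10.28 in FR areas (median 9.56) and from 8.30 to 10.90 in nonFR areas (median 9.84). Its FR minus nonFR difference was -1.65 in B1 and 1.02 in B13, so rats differed in direction.

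The kinase group, with activators, inhibitors and relatives, had 6 of 11 tested genes higher in FR areas. Camk4, a nuclear kinase that phosphorylates CREB, had the smallest p of all members (p = 0.130, limma), with 5.93 to 7.02 in FR areas (median 6.14) and 5.97 to 6.40 in nonFR areas (median 6.08). The highest FR level was in B13, and the difference was 0.14 (SE 0.088). Camk1g, a kinase of dendrite growth, was the only member with the same sign in 6 of 6 rats (2.94% of members, against 1.28% of all features). It ranged from 6.21 to 10.30 in FR areas (median 6.87) and from 6.35 to 9.06 in nonFR areas (median 6.84), with the highest FR level in slice S1 of B10. Its difference was 0.40 (SE 0.403, p = 0.332, limma), made up of 2.25 in B13 and 0.071 to 0.40 in the other rats, and only 7 of 10 slices were higher.

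The remaining kinase-group genes differed less than their errors or nearly so. Camkv, a kinase-like protein without catalytic activity, ranged from 6.28 to 7.93 in FR areas (median 7.29) and from 6.54 to 7.64 in nonFR areas (median 7.39), a difference of -0.089 (SE 0.126). The kinases Camk1, Camk1d, Camk2b, Camk2d and Camk2g had 0.018, -0.083, -0.091, -0.017 and 0.14. Camk2n1, an inhibitor of the CaMKII kinases, had 0.047 (SE 0.394). Camkk1, which phosphorylates and activates other kinases of the group, had -0.098 (SE 0.200), and Camkmt, the methyltransferase of calmodulin, 0.023 (SE 0.059).

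All 3 tested calcineurin genes were nominally lower in FR areas. Ppp3r1, the calcium-binding regulatory subunit, ranged from 10.58 to 12.52 in FR areas (median 11.97) and from 11.07 to 12.66 in nonFR areas (median 11.91). The difference was -0.17 (SE 0.216, p = 0.448, limma), with -1.69 in B1 and -0.19 to 0.31 in the other rats. The catalytic subunits Ppp3ca and Ppp3cb had -0.065 (SE 0.384) and -0.032 (SE 0.155).

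A closer look slice by slice showed large FR minus nonFR differences of opposite sign. Camk2b, a CaMKII kinase that also binds actin in dendritic spines, had -4.66 in slice S1 and 2.60 in slice S3 of the same rat, P91. In B10 it had -0.83 in slice S1 and 3.72 in slice S2. Cacna2d1, the alpha-2-delta subunit that binds gabapentin, had -4.02 and 1.74 in the slices of P91 and -0.60 and 4.17 in those of B10. The fitted differences over all areas were -0.091 for Camk2b (95% interval -1.59 to 1.41) and -0.30 for Cacna2d1 (-1.65 to 1.05). A test of whether the FR minus nonFR difference itself varied between rats (limma, interaction) called 0 of 34 members, against 0.0244% of all features, with 0 members at an unadjusted p below 0.05 (4.70% of all features).

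**Figure D2:**
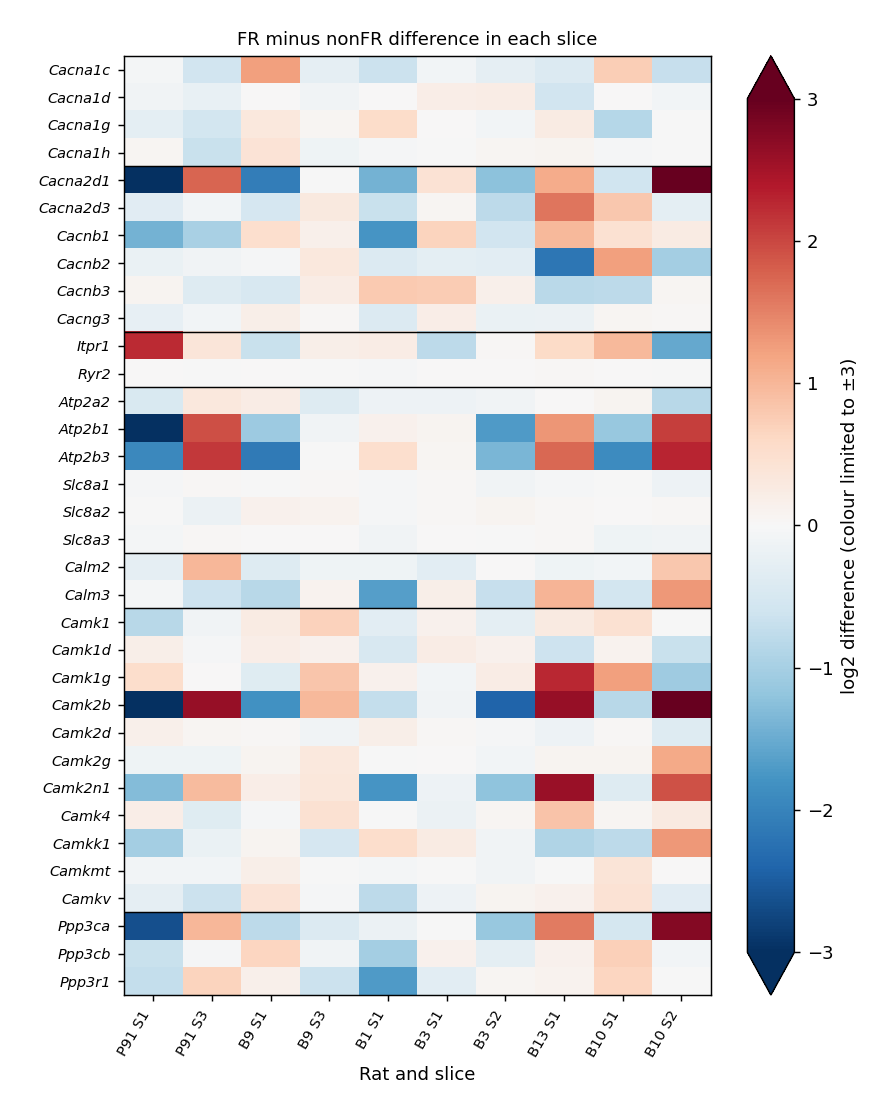
FR minus nonFR difference (log2, colour, limited to 3 either way) of the 34 tested members in each of the 10 slices with both areas, with roles separated by lines. Camk2b, Cacna2d1, Ppp3ca, Atp2b1 and Atp2b3 share a sign in 7 of 10 slices (red in P91 S3, B13 S1 and B10 S2, blue in P91 S1, B9 S1, B3 S2 and B10 S1) and differ in sign in B9 S3, B1 S1 and B3 S1.

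Camk2b and Cacna2d1 had the widest spread within rats among the members. The SD of areas within a rat, after the group term, was 1.68 log2 for Camk2b, 1.52 for Cacna2d1, 1.19 for Atp2b1 and 1.06 for Atp2b3. These 4 members (11.8%) exceeded 1 log2, as did 1.36% of all features, while the median SD was 0.337 for members and 0.337 for all features. Camk1g (0.96), Camk2n1 (0.94) and Ppp3ca (0.92) came next. Dim probes have small SDs because the scale is compressed near background.

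The 5 probes of Camk2b, Cacna2d1, Ppp3ca, Atp2b1 and Atp2b3 varied together. They were picked after their values were seen, so their likeness is a description. Deviations from the rat mean over the 21 areas correlated between 0.83 and 0.96 (Pearson) in the 10 pairs among them, with Camk2b and Atp2b1 the closest. Areas of a rat share the animal, and the points are not independent. Without the areas farthest from their rat mean, P91 S1 FR and B10 S2 FR, the correlations lay between 0.796 and 0.935, and without rat P91 between 0.78 and 0.95. Of the 561 pairs of tested members, 14 (2.50%) correlated above 0.8, against 0.430% of all pairs of features. The 10 pairs among the 5 picked probes are part of these 14, so the count mostly restates that choice. The opposite extreme was Camkk1 with Itpr1, at -0.82.

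In the 21 areas, the mean level of the 5 probes ran from 6.96 to 10.64 in FR areas and from 7.18 to 10.35 in nonFR areas. The lowest were P91 S1 FR at 6.96, B10 S1 FR at 7.14, B10 S2 nonFR at 7.18 and B13 S1 nonFR at 7.72. The highest were P91 S3 FR at 10.64, B9 S3 FR at 10.41 and B9 S2 nonFR at 10.35. Low and high areas were thus found in both groups. The FR minus nonFR difference of this mean was -3.33 in P91 S1 and -1.57 in both B9 S1 and B3 S2, but 3.0 in B10 S2, 1.88 in P91 S3 and 1.67 in B13 S1.

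**Figure D3:**
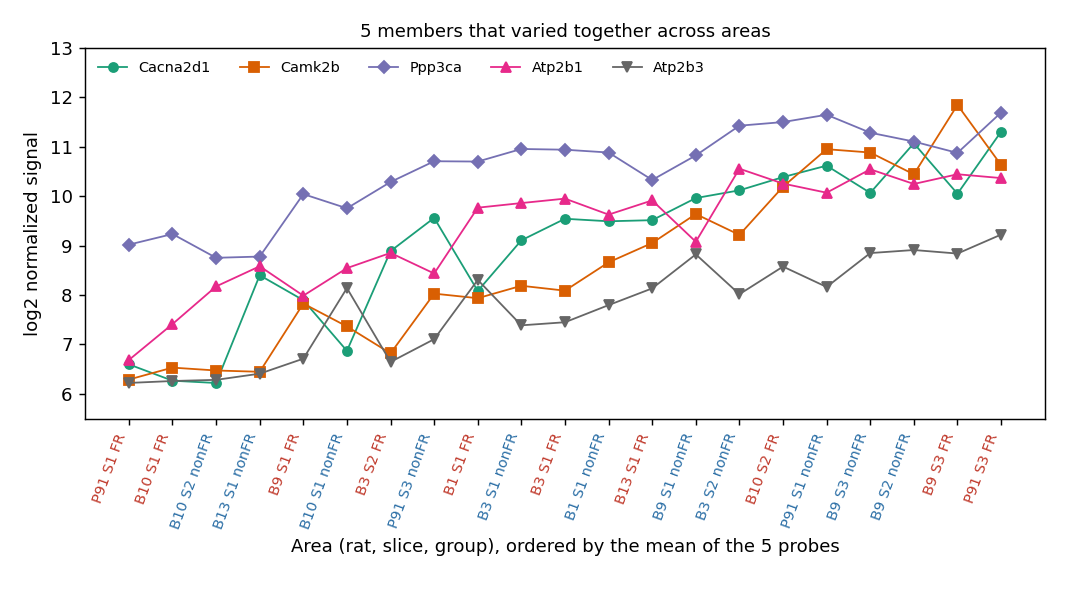
Log2 normalized signal (vertical axis) of Cacna2d1, Camk2b, Ppp3ca, Atp2b1 and Atp2b3 in each of the 21 areas, ordered along the horizontal axis by the mean of the 5 probes, with FR labels in red and nonFR labels in blue. Both groups are spread along the whole order, from P91 S1 FR (mean 6.96) to P91 S3 FR (mean 10.64).

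The lowest area, P91 S1 FR, had 9038 detected probes and a mean raw signal of 235.4, while B10 S2 FR, with a mean of 10.18 for the 5 probes, had 7277 and 101.3. The areas with the fewest detected probes, B10 S2 nonFR (5648) and B10 S1 FR (6753), were both among the low ones. The part of array detection in the pattern was not tested. On the mean log2 scale, granule cell markers (5 of 9 listed passed the filter) differed with the same sign as the 5 probes in 9 of 10 slices. In P91 S3 the shared sign rested on 0.015 for the markers, against 1.88 for the 5 probes. Prox1 (means 5.95 in FR and 6.01 in nonFR areas) and Stxbp6 (5.97 and 5.96) lay near the floor and add little to this mean. The granule cell markers correlated with the 5 probes at 0.41 within rats. The summed linear signal of these markers was 490.0 to 5148 in FR areas and 645.2 to 6754 in nonFR areas. B13, the exception on the mean log2 scale, had -1.40 for these markers and 1.67 for the 5 probes. B10 S2 was another exception on the summed scale, at 3316 in the FR area and 5859 in the nonFR area. The 5 probes had 3.0 there. Single markers went both ways in that slice, with -2.81 for Calb1 and 2.54 for C1ql2. Neuron markers (9 of 9) had the same sign in 8 of 10 slices and a correlation of 0.23. Oligodendrocyte markers had the same sign in 7 of 10 slices at a correlation of -0.011, so sign counts and correlations need not go together. Interneuron markers correlated at -0.33 (6 of 10 slices), endothelial markers at -0.23 (3), mossy cell markers at 0.14 (4), astrocyte markers at 0.085 (5) and microglia markers at 0.050 (6). The pyramidal cell list, with 2 tested genes, was not compared with the 5 probes. The part of these cell types in the pattern was not tested.

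Genes outside the calcium group varied with them too. Of the 8206 other features, 84 (1.02%) correlated above 0.8 with the mean of the 5 probes. The closest with a symbol were Lsm12 at 0.96, Gda, guanine deaminase, at 0.95, Actr2, an actin nucleator of the Arp complex, at 0.94, Kmt5a, a histone methyltransferase, at 0.94, and Mark2, a microtubule-regulating kinase, at 0.94. Kcnd2, a pore of the A-type potassium current, stood at 0.91 and Prkce, a protein kinase C, at 0.91. None of these is in the rule that defined the members.

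Promoters of the members that moved together are shown because such genes can be compared by sequence. The windows run from 250 bases before to 50 after the annotated start, are from RefSeq (GRCr8), and capitals mark GC boxes (GGGCGG on either strand, adjoining or overlapping matches merged), the sequence bound by Sp-family factors. They are Cacna2d1 at chr4:20330098-20330397 (minus strand), the first of its 3 listed starts, Camk2b at chr14:85147895-85148194 (minus strand), Ppp3ca at chr2:227839357-227839656 (plus strand) and Atp2b1 at chr7:35622211-35622510 (plus strand). Atp2b3 is named only.
Cacna2d1: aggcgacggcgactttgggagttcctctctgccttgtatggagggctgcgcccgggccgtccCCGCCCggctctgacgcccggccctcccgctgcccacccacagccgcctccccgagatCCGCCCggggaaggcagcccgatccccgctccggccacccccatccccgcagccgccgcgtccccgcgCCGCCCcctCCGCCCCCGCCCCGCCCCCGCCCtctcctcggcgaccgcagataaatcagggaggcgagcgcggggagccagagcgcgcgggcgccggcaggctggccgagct
Camk2b: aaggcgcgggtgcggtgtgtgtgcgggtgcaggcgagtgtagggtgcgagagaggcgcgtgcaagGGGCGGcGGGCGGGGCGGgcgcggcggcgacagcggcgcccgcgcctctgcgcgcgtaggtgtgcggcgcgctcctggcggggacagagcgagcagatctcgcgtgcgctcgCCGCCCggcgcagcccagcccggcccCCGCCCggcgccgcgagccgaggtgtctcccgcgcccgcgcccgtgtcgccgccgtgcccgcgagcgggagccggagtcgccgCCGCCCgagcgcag
Ppp3ca: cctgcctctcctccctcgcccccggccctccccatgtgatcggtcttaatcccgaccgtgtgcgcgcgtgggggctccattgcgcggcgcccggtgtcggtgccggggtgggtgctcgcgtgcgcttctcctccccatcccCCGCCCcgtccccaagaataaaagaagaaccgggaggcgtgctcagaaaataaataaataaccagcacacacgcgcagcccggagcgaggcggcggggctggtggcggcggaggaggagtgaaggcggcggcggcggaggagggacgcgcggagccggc
Atp2b1: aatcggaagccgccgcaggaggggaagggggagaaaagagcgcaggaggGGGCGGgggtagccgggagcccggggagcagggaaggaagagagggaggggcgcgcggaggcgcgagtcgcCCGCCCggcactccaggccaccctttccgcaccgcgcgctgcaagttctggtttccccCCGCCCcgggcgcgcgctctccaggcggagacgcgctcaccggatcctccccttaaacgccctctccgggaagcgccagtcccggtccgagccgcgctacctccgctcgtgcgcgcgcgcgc

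The 4 windows were rich in G and C, with 78.3% in Cacna2d1, 81.3% in Camk2b, 70% in Ppp3ca and 74.3% in Atp2b1. GC boxes numbered 7, 6, 1 and 3 in the same order. A GC box was found in 33.1% of the 33469 promoter windows of the table, and in the first window of 18 of the 26 tested members that had a window. The first share counts every listed window, those of undetected genes included, and the other 1 window per detected gene. These shares therefore cannot be compared. The half-site of the CREB response element, TGACG on either strand, was found once in Cacna2d1 and in 0 of the other windows, against 21.2% of all windows. The E-box CACGTG was in 0 of the 4, against 6.42%. A match describes letters and not a bound site.

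Levels of 4 members differed between rats. In the limma F test over rats, 4 of 34 members (11.8%) passed, close to the 13.4% of all features that did. The labels give no chip or run, so rat and any processing batch cannot be told apart. B1 and B13 gave a single slice each, so for them rat and slice cannot be told apart either. Atp2a2 differed most (adjusted p = 0.000879, limma), with 86.0% of its variance between rats. It averaged 11.71 in P91, 12.26 in B9, 12.85 in B1, 12.73 in B3, 13.25 in B13 and 12.67 in B10. All areas of P91 lay at 11.44 to 11.92, below every other area of the series, and both areas of B13 stood at 13.25, above them all. Quantile normalization gave these B13 areas the same value, so it places the probe at one rank on both arrays.

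Itpr1 was also lower in P91 and B9 (8.56 and 8.58) than in B1 (10.05), B3 (9.74), B13 (10.69) and B10 (10.09), with an adjusted p of 0.0258 (limma F test). One FR area of P91, at 10.08, stood with the higher rats. Camkv averaged 6.62 in P91 and 7.07 to 7.59 in the other rats (adjusted p = 0.0317, limma F test). Cacnb3 ran the other way, highest in B9 (10.93) and P91 (10.53) and lowest in B13 at 9.26 (adjusted p = 0.0204, limma F test). Without B9, Atp2a2 was the 1 member that passed, and without B3 also 1. Without B9 the adjusted p was 0.136 for Cacnb3, 0.169 for Itpr1 and 0.0853 for Camkv (limma F test). Without B3 it was 0.0568 for Cacnb3, 0.0622 for Itpr1 and 0.0961 for Camkv (limma F test). Camkv also failed without P91 (adjusted p = 0.258, limma F test) and Itpr1 without B13 (0.0529), while 7 members passed without B10. Atp2a2 passed with any rat left out, at an adjusted p of 0.0266 without P91 and lower otherwise.

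**Figure D4:**
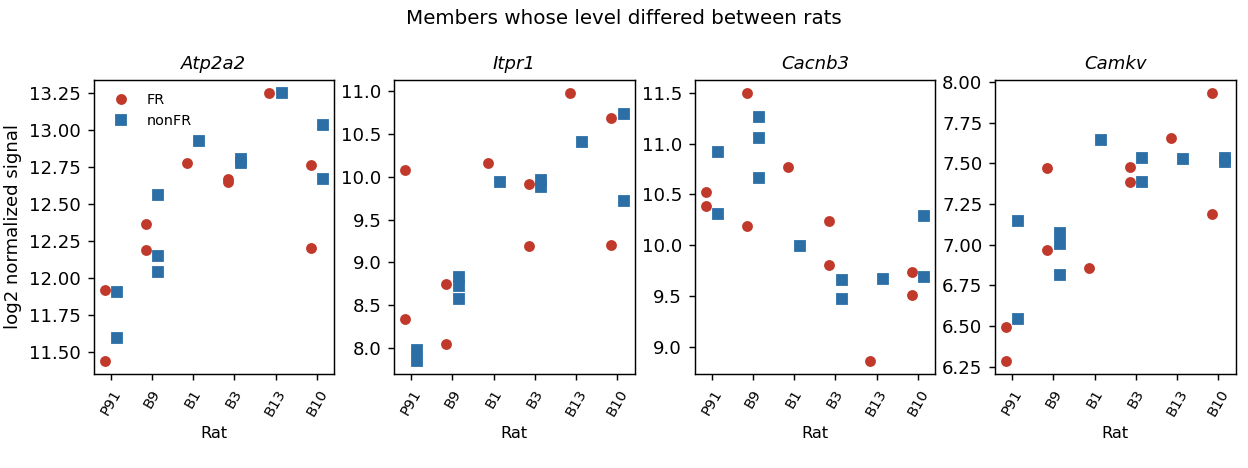
Log2 normalized signal (vertical axes) of Atp2a2, Itpr1, Cacnb3 and Camkv in each area, by rat, with FR areas as red circles and nonFR areas as blue squares. Atp2a2 is lowest in P91 and highest in B13, while Cacnb3 is highest in B9 and lowest in B13.

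Cell type markers varied between the rats too. Single markers were among the features of the limma F test over rats, with F from 0.248 (Flt1) to 15.6 (Stmn2). Atp2a2 had an F of 19.9 and Camkv 6.01. No test was made of the sums over lists. The summed linear signal of the astrocyte list (7 of 8 passed the filter) was 21034 to 35019 in areas of P91. It was 17562 to 24032 in B9, 16285 to 28256 in B1 and 14953 to 18151 in B3. B13 gave 16389 to 19495 and B10 8056 to 16470, so the ranges of several rats overlapped. The microglia list summed to 1426 to 4165 in P91, 578.7 to 1529 in B13 and 539.3 to 850.7 in B10. It summed to 1052 to 1890 in B9, 729.3 to 958.7 in B1 and 814.6 to 1217 in B3. The oligodendrocyte list summed to 5112 to 14371 in P91, 1343.5 to 5747 in B13 and 2598 to 10204 in B10. These oligodendrocyte ranges overlapped. The neuron list summed to 9415 to 22216 in P91, where the low end was the single area S1 FR. It summed to 23511 to 26480 in B13 and to 20409 to 32111 in B10. In B9 it was 18313 to 24207, in B1 19176 to 24870 and in B3 18622 to 21607. The part of these cell types in the rat differences was not tested.

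Ppp3r1 (adjusted p = 0.102), Calm3 (0.173) and Cacna1g (0.323) did not pass the limma F test between rats. Ppp3r1 averaged 11.19 in P91 and 12.47 in B13, Calm3 10.29 in P91 and 8.70 in B1. The SD of areas within a rat was 0.51 for Ppp3r1 and 0.61 for Calm3.

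Other calcium genes gave a like picture. Of 98 listed genes for calcium-binding proteins, store-operated entry, mitochondrial uptake and calcineurin targets, 65 had a named probe and 45 were tested, with 22 higher and 23 lower in FR areas and a median difference of -0.0041. None passed (0 of 45, adjusted p = 0.9999 for each, limma). A single gene, 1 of 45, had an unadjusted p below 0.05, beside 29 of all 8211 features (0.353%). That was Necab3, a neuronal calcium-binding protein, which averaged 6.41 ± 0.47 in FR areas and 6.74 ± 0.52 in nonFR areas (SD, n = 10 and 11). Its fitted difference was -0.29 (SE 0.131, p = 0.0409, limma). Ncald, a calcium sensor, had -0.17 (SE 0.110), Caln1, another sensor, 0.080 (SE 0.060) and Calb1 -0.65 (SE 0.512). Of the list, 7 of 45 genes passed the test between rats, a share near the 13.4% of all features, among them Plcb1, the phospholipase that makes inositol trisphosphate (adjusted p = 0.0266, limma F test).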

How the data were processed

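RNA of 21 dentate gyrus areas was measured on 1-colour Illumina rat beadchips. The deposited table gives, per the file headers, an average signal intensity and a detection p-value for each probe and array. A second deposited table holds the authors' processed values, which have the range of log2 signals. The tool named in the submitters' processing notes is lumi 2.2. The exact transformation and log base are not given in the sources used here, and it served only as an alternative. Each detection column was taken to belong to the signal column before it.

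Of 22523 probes, 720 that were 0 in all columns were dropped. The intensities were background-corrected and quantile-normalized with neqc (limma 3.58.1, R 4.3.3, offset 16). The filter required detection (p below 0.01) on 10 arrays or more, which 8223 probes met, with the brightest probe per symbol, giving 8211 features. Symbols come from the platform annotation, and all 58 member probes were found by gene number in RefSeq GRCr8, with 0 symbols changed. Array number limits precision.

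FR was compared with nonFR by limma (lmFit, eBayes) with rat as a fixed block, two-sided, with Benjamini-Hochberg adjustment over all features at 0.05. F tests in the same framework compared rats and asked whether the difference varied between rats. The pairing comes from the labels, which tie areas to rats. Deviations of both areas of a slice correlated at 0.36 on average (10 pairs, -0.014 to 0.64), and the mean was 0.35 between slices of a rat and -0.11 between rats. No arrays were identical. Full values are given, per role, for the tested member with the smallest p of each test and for any with 1 sign in 6 of 6 rats. Members and lists were chosen with earlier results of these data known. The fits were run on simulated data with independent normal noise. FR effects were planted only in features of small SD within rats, so members of wide spread were not covered.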

Additional observations from a re-analysis of the deposited data

Results flagged for a closer look

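Of 68 sets of values (levels of each tested member on the 10 FR areas, and FR minus nonFR differences over the 6 rats), 8 held 1 value that stood far from the rest by Dixon's criterion. For independent normal values of equal spread, chance gives about 1 in 20, or 3.4 such sets. These sets share areas and genes that vary together, and rats with 1 slice rest on fewer areas. The count therefore cannot be set against 3.4 as a test. Rat B13, with 1 slice, gave 4 of the 8. Its FR minus nonFR difference was -2.17 for Cacnb2 (next lowest rat -0.42), 2.25 for Camk1g (next highest 0.40) and 0.87 for Camk4 (next 0.23), and its FR area had the highest Camk4 level, 7.02, against 6.43 in the next FR area. In the same slice the mean log2 level differed by -1.40 for granule cell markers, 1.5 for pyramidal cell markers (2 tested), 1.33 for oligodendrocyte, 0.92 for microglia, 0.68 for endothelial, 0.62 for interneuron, 0.45 for astrocyte, 0.13 for neuron and -0.26 for mossy cell markers, and their part in these values was not tested. In B1, also with 1 slice, Ppp3r1 had a difference of -1.69 (next lowest rat -0.19), and Calm3 in the FR area was at 7.88, below the 9.19 of the next FR area. Cacna1h was highest in the FR area of B9 S1 at 6.37, against 5.99 in the next. Camkmt was highest in the FR area of B10 S1 at 6.43, against 6.19 in the next.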

How the results depend on the processing

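With 6 rats, no alternative called any feature for FR against nonFR (limma, 0 in each; 8 to 547 at an unadjusted p below 0.05), and the member median stayed between -0.086 and -0.0035. The labels pair areas by rat. With no replicate block 0 features passed (10 unadjusted), with slice as the replicate block 0 (48), and no member's call changed under either. Members past the test between rats numbered 4, but 2 with no detection filter, 6 without background correction, 9 with array weights, 5 with detection on all 21 arrays or without the array with the fewest detected probes, and 1 to 7 with a rat left out. The authors' processed values, an offset of 50 and slice as a random replicate block gave 4. The test of varying differences called 0 members in each alternative run. Of 564 alternative member differences, 0 passed and 62 turned sign, and 14 of 34 members kept their sign throughout. Signs turned with the authors' processed values (Cacna2d3 -0.012, Calm2 -0.014, Camk1 -0.016), without background correction (Cacna2d3 -0.043, Camk1 -0.0051, Cacna1g 0.010), with no replicate block (Cacna2d3 -0.016, Camk2n1 -0.031), with animal means (Ppp3ca 0.078, Camk1 -0.0013, Camk2b 0.094, Cacna1g 0.033, Atp2b3 0.13), with array weights (Cacna2d3 -0.025, Cacnb1 0.10, Cacnb3 0.20, Calm2 -0.083, Camk1 -0.0092, Camk1d 0.065, Camk2d 0.011, Camk2n1 -0.18, Itpr1 -0.0085, Cacna1d 0.030, Cacna1h 0.017) and without the array with the fewest detected probes (Cacna2d3 -0.012, Calm2 -0.034, Camk1 -0.024, Camk2d 0.019, Camk2n1 -0.037). With each rat left out, differences ran from -0.30 to 0.19 for Atp2b3, -0.12 to 0.00042 for Cacna1d, -0.12 to 0.067 for Cacna1g, -0.069 to 0.054 for Cacna1h, -0.80 to 0.024 for Cacna2d1, -0.15 to 0.10 for Cacna2d3, -0.30 to 0.16 for Cacnb1, -0.17 to 0.032 for Cacnb3, -0.059 to 0.11 for Calm2, -0.090 to 0.14 for Camk1, -0.46 to 0.18 for Camk2b, -0.046 to 0.020 for Camk2d, -0.22 to 0.24 for Camk2n1, -0.18 to 0.023 for Camkk1, -0.018 to 0.048 for Camkmt, -0.15 to 0.26 for Itpr1, -0.35 to 0.12 for Ppp3ca, -0.14 to 0.072 for Ppp3cb and -0.0055 to 0.045 for Slc8a2. The cause was not tested. The correlations without chosen areas or rats were added after the data were seen, and probes near background have compressed differences.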
